A study of Mus musculus with 6 samples.

Results

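The genes described here are 8 G-protein-coupled receptors and 2 adenylyl cyclases that tune insulin secretion: Glp1r, Gipr, Gcgr, Ffar1, Gpr119, Adra2a, Chrm3, Sstr3, Adcy5 and Adcy8. They were chosen by symbol, as 10 of the 55401 genes in the deposited count table, with earlier results of these data known. All 10 were found, and 9 passed the filter on low counts, the exception being Adcy8. Islet RNA was sequenced from male C57BL/6 mice aged about 20 weeks. The 3 KO libraries came from mice with the genotype Pdgfra fl/fl Pdx1-Cre+ and the 3 control libraries from mice with the genotype Pdgfra fl/fl Pdx1-Cre-. Both groups therefore carry floxed Pdgfra, the gene of platelet-derived growth factor receptor alpha, and no Cre-positive group with unfloxed Pdgfra was analysed here. Pdx1 is active in the cells that give rise to the whole pancreas, so a Cre under its promoter need not act in beta cells alone. The comparison asks how islet transcripts differ with a deletion of Pdgfra from this Cre.

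Beta cells release insulin when glucose closes their potassium channels and calcium enters, and hormones, nerves and fatty acids adjust that release through G-protein-coupled receptors. Receptors coupled to Gs (Glp1r, Gipr, Gcgr and Gpr119) stimulate adenylyl cyclases to make cAMP, which amplifies exocytosis. Those coupled to Gq (Ffar1 and Chrm3) act through phospholipase C and calcium stores. Those coupled to Gi (Adra2a and Sstr3) lower cAMP and restrain secretion.

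None of the 9 genes tested passed the test between KO and control islets, and Adcy8 was not tested. Glp1r was by far the most abundant of the 10 genes per length, in every library. Adra2a was the one whose groups did not overlap, with higher values in KO, where 13.9% of all genes tested did not overlap in either direction. Adra2a missed the threshold after adjustment over all genes. The 95% intervals of all 9 tested genes lay within 1 log2 unit of 0.

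The promoters of the 2 genes with the highest length-scaled levels, Glp1r and Ffar1, are shown because these receptors make up most of the signal described below. The sequences come from RefSeq (GRCm38.p6), whose promoter table held 8 of the 10 genes. Each runs 5′ to 3′ and stops before the gene's deposited span, and capitals mark GC boxes (GGGCGG) and E-boxes (CANNTG), searched on both strands. They lie at chr17:30901617-30901816 on the plus strand and at chr7:30861565-30861720 on the minus strand.
Glp1r: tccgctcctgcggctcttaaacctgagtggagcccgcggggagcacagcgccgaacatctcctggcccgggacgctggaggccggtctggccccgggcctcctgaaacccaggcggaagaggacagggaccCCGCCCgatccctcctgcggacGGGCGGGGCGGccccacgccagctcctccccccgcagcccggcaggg
Ffar1: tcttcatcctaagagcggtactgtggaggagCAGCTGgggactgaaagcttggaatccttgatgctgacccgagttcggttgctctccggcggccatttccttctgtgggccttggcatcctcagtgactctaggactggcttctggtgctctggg
The Glp1r stretch had a GC content of 75.0%, above that of 96.1% of the promoter windows of the same length, and held 3 GC boxes, of which a pair overlap by a base. A GC box was present in 24.6% of those windows. The Ffar1 stretch had a GC content of 57.1% and held 1 E-box, a motif present in 50.6% of windows of its length. Neither stretch held the cAMP response element (TGACGTCA), its half-site (TGACG), a homeodomain core (TAAT) or a TATA box (TATAAA). The full element occurred in 0.828% of windows of the longer length and in 0.399% of those of the shorter one. These matches describe letters in a short window and say nothing of binding.

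Library totals ran from 18247741 to 25039394 counts in KO and from 15026094 to 25299689 in controls. Pdgfra itself had 93, 25 and 125 counts in KO 1, 2 and 3, against 42, 88 and 116 counts in controls 1, 2 and 3, so it did not separate the groups. Its counts are sums over all exons, including any outside the floxed stretch, so they do not check the deletion. The labels give islet as the tissue and beta cell as the cell type, and name no sort. Beta-cell markers took 12.04 ± 1.1% of counts in KO and 11.8 ± 3.6% in controls (SD, n = 3 each), while 19 acinar markers took 28.2 ± 8.1% in KO and 34.8 ± 9.9% in controls, with all 19 acinar values negative (KO over control) and the shares overlapping. Markers of alpha, delta, PP, duct, stromal, endothelial, immune, neural and red blood cells were all detected, with no marker at 0 in every library. A ribosomal RNA locus took 5.36%, 12.6% and 18.5% of counts in KO 1, 2 and 3, against 4.38%, 3.32% and 4.51% in controls 1, 2 and 3. Counting error was small, the widest 95% Wilson interval of a share being 0.0251 percentage points on each side. The columns of the KO libraries, and of no control, carry a suffix in their names that the labels do not explain.

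Per length of exon, the 10 genes spanned more than 3 orders of magnitude in level and kept 1 order in both groups. Levels in this paragraph are CPM (read counts scaled to library size by TMM factors) divided by exon length in kb. Glp1r stood at 121 ± 14.9 in KO and 103 ± 6.6 in controls (SD, n = 3 each). It lay between the percentiles 98.5 and 99.2 of all tested genes in every library. Ffar1 followed at 32.4 ± 2.5 in KO and 30.8 ± 5.0 in controls, then Sstr3 at 25.3 ± 2.6 and 23.0 ± 2.4, and Adra2a at 21.7 ± 1.4 and 17.5 ± 1.6. A middle tier held Chrm3 at 5.93 ± 0.33 in KO and 5.88 ± 0.14 in controls, Gpr119 at 4.37 ± 0.74 and 4.87 ± 0.55, Gipr at 3.22 ± 0.43 and 2.51 ± 0.64, and Gcgr at 2.09 ± 0.40 and 2.06 ± 0.34. The cyclases were lowest, with Adcy5 at 0.365 ± 0.177 in KO and 0.340 ± 0.018 in controls, and Adcy8 at 0.0566 ± 0.0158 and 0.0510 ± 0.0196. Neighbours in this order had separate ranges except Sstr3 and Adra2a in KO, Gpr119 and Gipr in KO, and Gipr and Gcgr in controls.

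**Figure D1:**
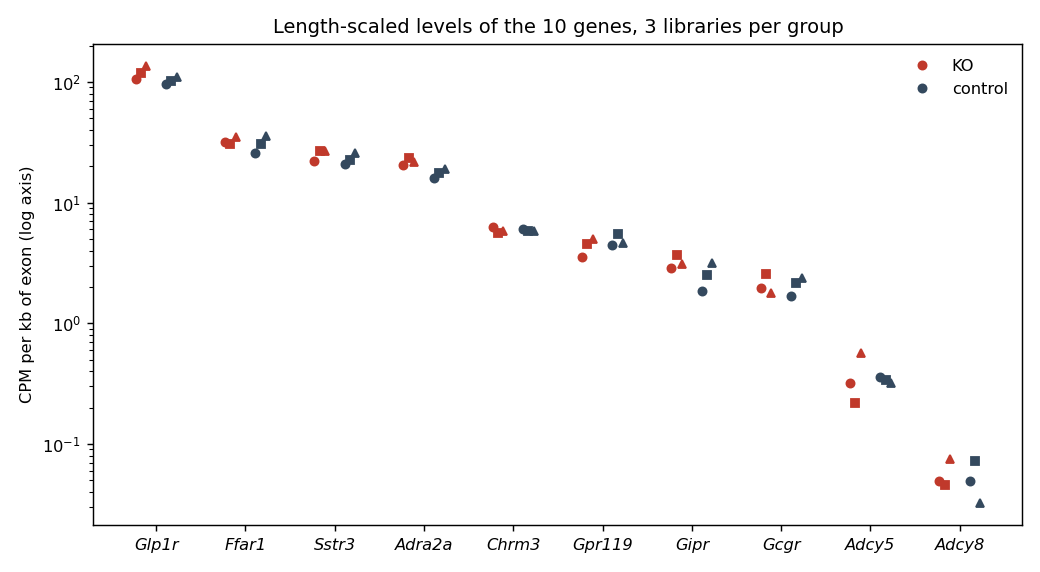
Length-scaled level of each gene (CPM per kb of exon, log axis) in the 3 KO and 3 control libraries, ordered by the control mean, with marker shapes for replicates. Glp1r averaged 121 in KO and 103 in controls, and Adcy8 averaged 0.0566 in KO and 0.0510 in controls.

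Among the receptors coupled to Gs, nearly all of the length-scaled level was Glp1r. Its share of the sum of the 4 Gs-coupled receptors was 92.7%, 91.7% and 93.2% in KO 1, 2 and 3, against 92.4%, 90.9% and 91.6% in controls 1, 2 and 3. The ratio of Glp1r to Gipr, both receptors of incretin hormones, was 36.8, 32.2 and 44.3 in KO 1, 2 and 3, against 52.0, 40.4 and 35.1 in controls 1, 2 and 3. That ratio overlapped between the groups. The sum of the Gs-coupled receptors over that of the Gi-coupled pair was 2.69, 2.60 and 3.02 in KO 1, 2 and 3, against 2.86, 2.79 and 2.696 in controls 1, 2 and 3, again with overlap.

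Of the 9 genes tested, 0 were called by edgeR (quasi-likelihood test, Benjamini-Hochberg adjustment over all 14212 genes, threshold 0.05), where 0.0704% of all genes were, 0.00704% as higher and 0.0633% as lower in KO. DESeq2 and limma-voom also called 0 of them. At an unadjusted p under 0.05 there was 1 of 9, Adra2a, against 7.37% of all genes (4.83% higher and 2.54% lower in KO). The groups failed to overlap in the same 1 of 9, against 13.9% of all genes (7.94% higher and 5.94% lower in KO). Of the 9 log2 fold changes (KO over control), 7 were positive and 2 negative, with a median of 0.13. Over all genes tested 47.8% were positive and the median was -0.01. Of the 13 beta-cell markers, 10 were positive and 3 negative, with a median of 0.15. The exact two-sided permutation test cannot go below p = 0.1 with 3 libraries per group. The labels do not say whether libraries came from different animals, so the p-values measure only the spread between libraries.

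Glp1r, the receptor of the incretin GLP-1 and of its drug analogues (ENSMUSG00000024027.8, chromosome 17, 30901817 to 30940791), had 618, 694 and 790.1 CPM in KO 1, 2 and 3, against 564, 593 and 639.8 CPM in controls 1, 2 and 3. KO 2 and KO 3 lay above every control, while KO 1 lay within the control range. The log2 fold change of 0.23 had an SE of 0.14 and a 95% interval of -0.08 to 0.54, which is 0.944-fold to 1.45-fold (edgeR adjusted p = 0.745). The counts behind it were 15417, 11128 and 20765 in KO, against 7028, 10175 and 19422 in controls. With the ribosomal RNA locus as a covariate, whose level nearly separates the groups, the log2 fold change was 0.02 (SE 0.22). With 1 library left out it ran from 0.13 (without KO 3) to 0.31 (without KO 1).

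Gipr, the receptor of the other incretin, GIP (ENSMUSG00000030406.7, chromosome 7, 19156061 to 19166127), had 10.1, 12.9 and 10.7 CPM in KO 1, 2 and 3, against 6.498, 8.80 and 10.9 CPM in controls 1, 2 and 3. The groups overlapped, and control 1 was lowest. The log2 fold change of 0.33 had an SE of 0.19 and a 95% interval of -0.09 to 0.74 (edgeR adjusted p = 0.744). It was 0.17 without control 1 and 0.54 without control 3 (edgeR adjusted p = 0.560), the libraries with the lowest and the highest beta-cell share, 8.14% and 15.3%. With the mean beta-cell marker level as a covariate the value was 0.12 (SE 0.12). Set against that marker level within each library, in log2 units, Gipr stood at -6.45, -6.29 and -6.44 in KO 1, 2 and 3, against -6.87, -6.58 and -6.47 in controls 1, 2 and 3. On that scale every KO library lay above every control, by 0.25 on average, though KO 1 and control 3 were nearly level. How many of all genes would separate in this way was not computed. In bulk RNA, fewer cells of a type and less RNA per cell cannot be told apart.

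Gcgr, the glucagon receptor (ENSMUSG00000025127.15, chromosome 11, 120530699 to 120538986), had 5.13, 6.67 and 4.64 CPM in KO 1, 2 and 3, against 4.41, 5.65 and 6.16 CPM in controls 1, 2 and 3. The groups lay over each other (log2 fold change -0.01, SE 0.19, 95% interval -0.44 to 0.42, edgeR adjusted p = 0.991). Gpr119, a receptor of lipid amides encoded on the X chromosome (ENSMUSG00000051209.3, 48667979 to 48674478), had 8.09, 10.2 and 11.4 CPM in KO 1, 2 and 3, against 10.1, 12.5 and 10.6 CPM in controls 1, 2 and 3. KO 1 was below every control and the other KO libraries were not (log2 fold change -0.16, SE 0.15, 95% interval -0.50 to 0.19, edgeR adjusted p = 0.830). The value was -0.029 without KO 1, -0.064 without control 2 and -0.28 without KO 3, and -0.44 (SE 0.25) with the ribosomal RNA locus as a covariate.

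Ffar1, the receptor of long-chain fatty acids also called GPR40 (ENSMUSG00000044453.5, chromosome 7, 30857390 to 30861564), had 133, 127 and 147 CPM in KO 1, 2 and 3, against 108, 128 and 149.7 CPM in controls 1, 2 and 3. The KO libraries lay inside the control range (log2 fold change 0.07, SE 0.13, 95% interval -0.22 to 0.37, edgeR adjusted p = 0.910). The libraries with the lowest acinar shares, KO 3 at 19.1% and control 3 at 25.1%, had the highest Ffar1 values. Control 1, with the highest share at 44.8%, had the lowest. The order did not hold throughout, since KO 2, at 30.7%, had less Ffar1 than KO 1 at 34.7% and control 2 at 34.5%. With the acinar score as a covariate the log2 fold change was 0.00 with a smaller standard error, 0.08. Whether acinar content accounts for the Ffar1 values was not tested.

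Chrm3, the muscarinic receptor through which acetylcholine acts on beta cells and on acinar cells (ENSMUSG00000046159.16, chromosome 13, 9875486 to 10360847), was the steadiest of the 10 in level. It had 39.4, 35.3 and 36.6 CPM in KO 1, 2 and 3, against 37.7, 36.1 and 36.5 CPM in controls 1, 2 and 3. Its coefficient of variation was 5.62% in KO and 2.31% in controls, where the median over all tested genes was 12.4% in KO and 10.7% in controls. The log2 fold change of 0.01 (SE 0.08) had the narrowest 95% interval of the 9, from -0.18 to 0.21 (edgeR adjusted p = 0.973).

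Adra2a, the alpha-2A adrenergic receptor through which noradrenaline inhibits insulin release (ENSMUSG00000033717.6, chromosome 19, 54044151 to 54048982), had 98.5, 112 and 104 CPM in KO 1, 2 and 3, against 76.5, 84.8 and 91.6 CPM in controls 1, 2 and 3. All 3 KO libraries lay above all 3 controls. The counts were 2460, 1800 and 2744 in KO, against 954, 1456 and 2782 in controls. This gave a log2 fold change of 0.32 with an SE of 0.10, or 1.24-fold (95% interval 0.09 to 0.55 in log2, unadjusted p = 0.0125). Its edgeR adjusted p was 0.568, since 309 other genes had smaller p-values.

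Set against the mean log2 level of the beta-cell markers in the same library, Adra2a stood at -3.22, -3.22 and -3.21 in KO 1, 2 and 3, against -3.41, -3.39 and -3.46 in controls 1, 2 and 3. The groups stayed apart on that scale too, by 0.20 log2 units on average. Adra2a and Gipr were the 2 of the 10 genes for which they did, Gipr only narrowly. The share of all genes that would separate on that scale was not computed, so this count has no background to be read against. In the edgeR fit with the beta-cell marker level as a covariate the log2 fold change was 0.22 (SE 0.10, unadjusted p = 0.0528, adjusted p = 0.9495), and with the ribosomal RNA locus it was 0.27 (SE 0.18).

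Sstr3, a somatostatin receptor that carries the inhibitory signal of delta cells (ENSMUSG00000044933.3, chromosome 15, 78537008 to 78544685), had 96.3, 116 and 115 CPM in KO 1, 2 and 3, against 90.0, 97.8 and 111 CPM in controls 1, 2 and 3. KO 1 fell within the control range and the other KO libraries lay above it (log2 fold change 0.13, SE 0.12, 95% interval -0.13 to 0.39, edgeR adjusted p = 0.816). Relative to the beta-cell markers, the mean difference of Sstr3 was 0.02 log2 units. With 1 library left out the log2 fold change ran from 0.064 (without control 1) to 0.22 (without control 3).

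**Figure D2:**
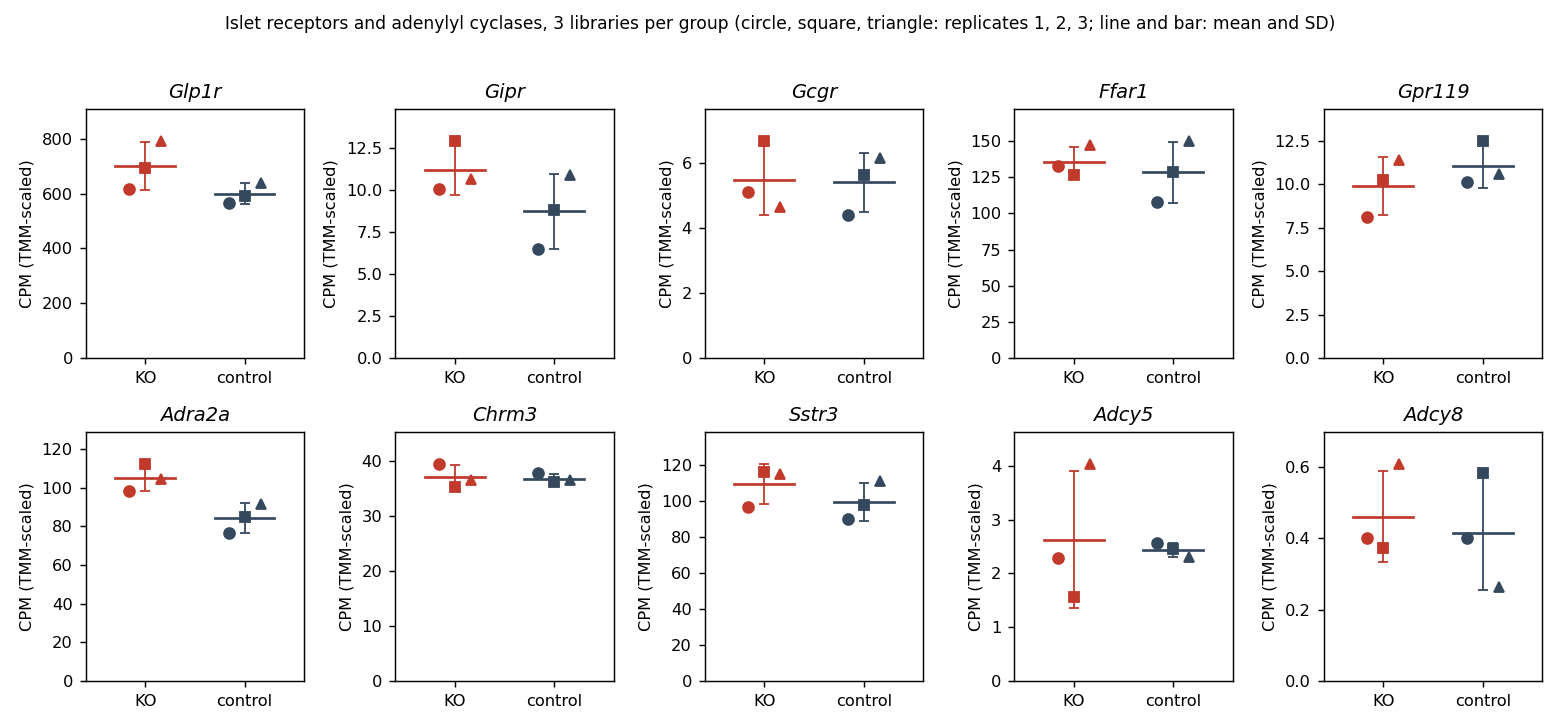
CPM of each of the 10 genes in the 3 KO and 3 control libraries (points), with group means (lines) and SD (bars), each axis starting at 0. Adra2a is the gene whose groups do not overlap, with 98.5 to 112 CPM in KO and 76.5 to 91.6 CPM in controls. The groups did not overlap in 13.9% of all genes tested.

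The 2 adenylyl cyclases were near the lower end of what the libraries could measure. Adcy5, a calcium-inhibited cyclase near whose human gene variants associate with glucose levels (ENSMUSG00000022840.9, chromosome 16, 35154877 to 35305738), was counted 57, 25 and 106 times in KO 1, 2 and 3, against 32, 42 and 70 times in controls 1, 2 and 3. In CPM these were 2.28, 1.56 and 4.03 in KO, against 2.57, 2.45 and 2.31 in controls. The KO libraries lay on both sides of a tight control group, with a coefficient of variation of 48.4% in KO and 5.35% in controls. The log2 fold change of 0.14 (SE 0.32, 95% interval -0.58 to 0.86, edgeR adjusted p = 0.931) turned to -0.31 without KO 3.

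Adcy8, a cyclase stimulated by calcium and calmodulin (ENSMUSG00000022376.8, chromosome 15, 64697084 to 64922296), was counted 10, 6 and 16 times in KO 1, 2 and 3, against 5, 10 and 8 times in controls 1, 2 and 3. It was below the filter and not tested, and a difference was not detectable at this depth. The cyclases with the highest length-scaled levels were outside the 10 genes. Adcy9 stood at 7.40 ± 1.19 CPM per kb in KO and 6.17 ± 0.68 in controls, and Adcy6 at 6.76 ± 0.59 in KO and 5.88 ± 0.18 in controls (SD, n = 3 each). Every other cyclase averaged under 1 CPM per kb in both groups.

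**Figure D3:**
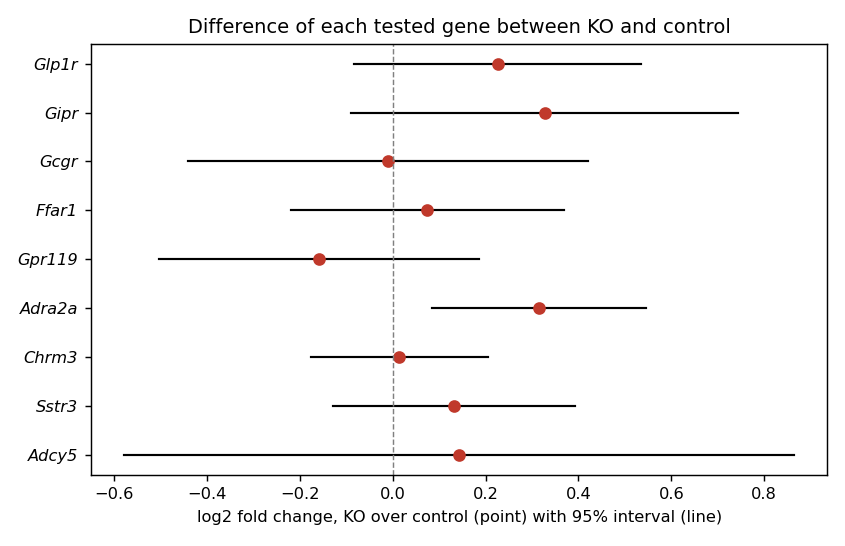
Log2 fold change of KO over control (points) with its 95% interval (lines) for the 9 tested genes, the dashed line marking 0. The interval of Adra2a runs from 0.09 to 0.55, and those of the other 8 genes include 0.

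Other genes of the same signalling were read from 9 lists, chosen with earlier results of these data known. They held 155 tested genes outside the 10. None passed by edgeR or limma-voom, and DESeq2 called 3, P2ry1, Rgs2 and Cited2. At an unadjusted p under 0.05 there were 24 (15.5%, against 7.37% of all genes tested), 18 higher and 6 lower in KO. The groups failed to overlap in 24 (15.5%), against 13.9% of all genes.

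Of 30 other receptors of islet cells, 17 had positive and 13 negative values, with a median log2 fold change of 0.07. P2ry1, a Gq-coupled receptor of ADP, had the smallest p. It had 35.1, 40.5 and 55.5 CPM in KO 1, 2 and 3, against 17.97, 21.0 and 28.0 CPM in controls 1, 2 and 3, so all KO libraries lay above all controls. Its log2 fold change was 0.96 (SE 0.20, edgeR adjusted p = 0.229). Chrm1, another muscarinic receptor, had a value of 1.13 (SE 0.34, adjusted p = 0.544) at a mean of 1.34 CPM in KO and 0.608 CPM in controls. Adora2a, an adenosine receptor, had a value of -0.62 (SE 0.22, adjusted p = 0.600).

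A list of receptor regulators held receptor kinases, arrestins and RGS proteins, which limit signalling, with RAMP proteins, which partner receptors, and Ric8 proteins, which help G-alpha subunits fold. Among its 20 tested genes 9 had positive and 11 negative values, with a median of -0.01. Rgs2 speeds the shutdown of Gq. It had 46.3, 65.1 and 76.3 CPM in KO 1, 2 and 3, against 14.0, 20.2 and 33.1 CPM in controls 1, 2 and 3. The lowest KO library exceeded the highest control, and the log2 fold change was 1.45 (SE 0.28, edgeR adjusted p = 0.178). The value of Grk5, a receptor kinase, was 0.37 (SE 0.12, adjusted p = 0.544), and that of Rgs16 was 0.40 (SE 0.14).

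Genes known as targets of cAMP and CREB had 16 positive and 3 negative values among 19 tested, with a median of 0.23 beside -0.01 over all genes. This list, like the others, was chosen with earlier results of these data known. Cited2, a partner of the coactivators CBP and p300, had 43.7, 44.2 and 50.5 CPM in KO 1, 2 and 3, against 22.6, 21.4 and 31.7 CPM in controls 1, 2 and 3. Its groups did not overlap, and the log2 fold change was 0.86 (SE 0.15, edgeR adjusted p = 0.114). Rgs2 is on this list too. Irs2, an adaptor of the insulin receptor, had 29.8, 33.4 and 46.6 CPM in KO 1, 2 and 3, against 21.4, 20.8 and 27.0 CPM in controls 1, 2 and 3 (log2 fold change 0.66, SE 0.17, edgeR adjusted p = 0.485).

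P2ry1, Rgs2, Cited2 and Irs2 crossed the threshold in some fits and not in others. For P2ry1, Rgs2 and Cited2, DESeq2 gave adjusted p-values of 0.00218, 3.56e-05 and 3.92e-04, and edgeR with the acinar score as a covariate gave 0.00850, 0.00621 and 0.0182. With the replicate number as a block, which the labels do not support as a pairing, edgeR gave 0.00458, 0.00214 and 0.0146 for these and 0.0481 for Irs2. Without the filter on low counts edgeR called all 4, with 1.98e-05 for Irs2. That fit alone also called list genes in both directions. Higher in KO were Crebbp (log2 fold change 0.66) and Nr4a1 (0.65). Lower in KO were Cckar (-0.46), Ptger3 (-0.64) and Vip (-1.01). The share of counts from the ribosomal RNA locus also separated the groups, with a smallest share of 5.36% in KO and a largest of 4.51% in controls. The covariate was the log2 CPM of that locus, where KO 1 (15.67) lay just below control 1 (15.69), so the groups barely overlapped. KO 2 (17.13) and KO 3 (17.42) lay above every control. This covariate can therefore hardly be told apart from genotype, and values fitted with it carry that limit. With that locus as a covariate the log2 fold changes were 0.60 (SE 0.31) for P2ry1, 1.05 (SE 0.46) for Rgs2, 0.76 (SE 0.25) for Cited2 and 0.26 (SE 0.25) for Irs2, with an edgeR adjusted p of 0.9999 for each.

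**Figure D4:**
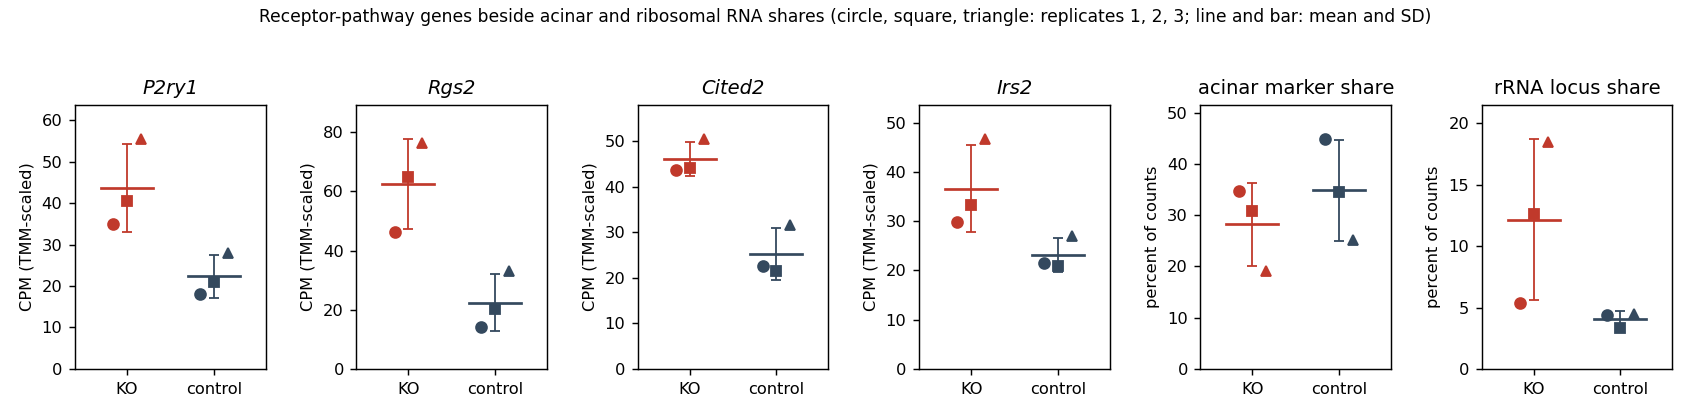
CPM of P2ry1, Rgs2, Cited2 and Irs2, and the percentage of counts from acinar markers and from a ribosomal RNA locus, in the 3 KO and 3 control libraries (points), with means (lines) and SD (bars). In the 4 genes and in the ribosomal RNA share the KO libraries lie above the controls, while the acinar shares overlap.

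The remaining lists had medians from -0.07 to 0.20 and no gene past the threshold. In the 18 Gq effectors 12 values were positive, and the smallest p-values belonged to Prkca, a protein kinase C (0.39, SE 0.12, edgeR adjusted p = 0.563), Dgkb, a diacylglycerol kinase (0.51, SE 0.17) and Itpr1, an IP3 receptor (0.41, SE 0.14). Of 19 cAMP effectors 11 were positive, led by the coactivator Crebbp (0.66, SE 0.22, adjusted p = 0.582). Prkacb, a catalytic subunit of protein kinase A, had a value of 0.21 and the CREB coactivator Crtc3 one of 0.18. Phosphodiesterases, which break down cAMP and cGMP, were evenly split, with 7 positive and 7 negative. Their smallest p-values were those of Pde1a (-0.88, SE 0.36), Pde7b (0.38, SE 0.16) and Pde1c (0.28, SE 0.12). G-protein subunits had 8 positive and 14 negative values, among them Gnai2 at -0.29 (SE 0.10, edgeR adjusted p = 0.600), Gnaz at 0.25 (SE 0.09) and Gng5 at -0.28 (SE 0.11).

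Of 7 other adenylyl cyclases tested, 4 had positive values. The groups did not overlap in 1 that was higher in KO, Adcy6, and in 1 that was lower, Adcy4, beside 13.9% of all genes in either direction. Adcy6 had a log2 fold change of 0.20 (SE 0.09), Adcy4 one of -0.55 (SE 0.25) and Adcy9 one of 0.27 (SE 0.13), with an edgeR adjusted p of at least 0.689 for all 3. Receptor ligands showed 4 positive and 6 negative values in 10 tested genes. The smallest p-values were those of Th, the enzyme of catecholamine synthesis (-0.32, SE 0.17), Vip (-1.00, SE 0.78) and Npy (0.37, SE 0.36). Gcg, which encodes glucagon and GLP-1, had a value of -0.01 (SE 0.27), and Sst, the somatostatin gene, one of -0.05 (SE 0.17). Gip had 0 counts in all 6 libraries.

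**Figure D5:**
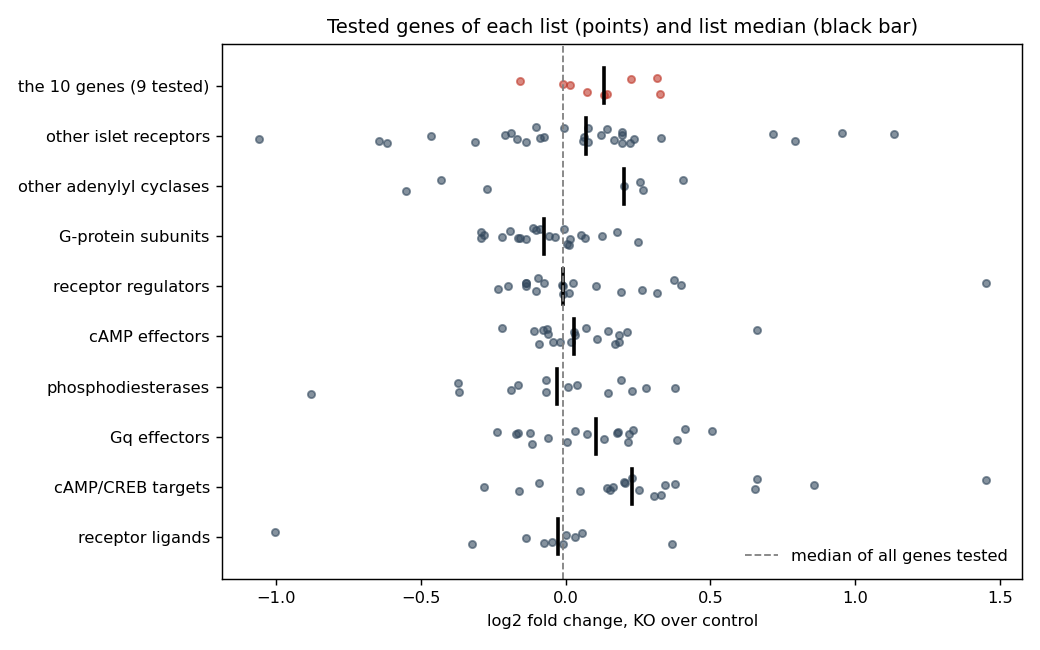
Log2 fold change of KO over control for each tested gene (points) in the 10-gene set and in 9 lists of related genes, with list medians (black bars) and the median of all genes tested (dashed line). The median of cAMP/CREB targets was 0.23 and that of the 9 tested genes of the set 0.13, beside -0.01 for all genes. The set and the lists were chosen with earlier results of these data known.

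The genes whose pattern over the 6 libraries was most like that of Glp1r, among 8198 others whose mean log2 CPM reached 3, were Dcx, Rbm15 and Ece1, with Pearson correlations of 0.998, 0.995 and 0.994 in log2 CPM. The 6 points share library scaling, and the correlations are given as a description.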

How the data were processed

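RNA of 6 islet libraries (3 KO, 3 control) was analysed from the authors' deposited table of raw read counts per gene. The submitters' processing notes name the aligner STAR 2.7.9, the counter featureCounts 2.0.0 and the mouse build GRCm38 (mm10), on which the coordinates are given. Which annotation release was used, and how strand and multi-mapping reads were handled, is not given in the sources used here. The exons of the 10 genes shared no base with another gene of the table. Of 55401 identifiers, 55141 could be paired with a symbol through a table of gene names. Exon lengths and gene spans are those of the deposited table.

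Genes were kept by filterByExpr (minimum count 10, minimum total 15), which left 14212, and the quasi-likelihood test of edgeR 4.0.16 in R 4.3.3 was run with TMM factors and genotype as the only term. P-values were two-sided, the Benjamini-Hochberg adjustment covered all 14212 genes, and the threshold was 0.05. Levels are CPM scaled by TMM factors. Scores used as covariates are means of log2(CPM + 0.5) over a marker list. The common biological coefficient of variation was 0.140. No pair of libraries agreed within sampling noise. The lowest chi-square was 14.4 per degree of freedom, between KO 1 and control 2. The lowest within a group was 43.3 in controls (2 and 3) and 84.9 in KO (1 and 2). The test was also run on simulated data. Alternatives were RLE factors, no filter, a replicate block, 3 covariates, acinar genes and the ribosomal RNA locus removed, DESeq2 1.42.0, limma-voom (limma 3.58.1) and each library left out.

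In each list the text names the 3 tested genes with the smallest p. The 3 genes most like Glp1r had the highest correlations with it. Gcg, Sst and Gip were named after their values were seen. The 10 genes and the lists were chosen with earlier results of these data known. Figures were drawn with Python 3.11.15 and matplotlib 3.10.9.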

Additional observations from a re-analysis of the deposited data

How the results depend on the processing

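None of the 9 tested genes of the set was called in any of the 15 alternatives, and 124 of their 135 values kept their direction. The exceptions were small values or Adcy5. With the ribosomal RNA covariate Gcgr was 0.047, Sstr3 -0.033 and Adcy5 -0.28, and with the beta-cell covariate Ffar1 was -0.026. With 1 library left out, Gcgr ran from -0.17 to 0.10, Ffar1 from -0.038 to 0.20, Chrm3 from -0.033 to 0.047 and Adcy5 from -0.31 to 0.38. Over all alternatives Glp1r (0.02 to 0.31) and Gipr (0.12 to 0.54) stayed positive and Gpr119 (-0.44 to -0.029) negative. Adra2a stayed positive, from 0.22 to 0.38, with adjusted p from 0.319 to 0.9999. Over all genes the 10 calls became 300 without the filter, 36 with the replicate block, 44 with the acinar, 0 with the ribosomal RNA (214 genes at an unadjusted p under 0.05) and 4 with the beta-cell covariate, 51 with DESeq2 and 6 with limma-voom. Leaving out 1 library, which lowers the number of samples, gave 2 to 6. Calls among the 155 list genes, 0 in the edgeR fit, became 9 without the filter, 4 with the replicate block, 3 with the acinar covariate and 3 with DESeq2, and ran from 0 to 1 with 1 library left out. The cause of these shifts was not tested. The labels do not say that replicate numbers pair libraries. Across genes, the deviations from the group means had correlations of 0.16, -0.16 and 0.14 between libraries of 1 number, and 3 of 6 libraries correlated best with their own number. Divided by exon length, Glp1r made up 55.7% of the summed level of the 10 genes in KO and 54.3% in controls, and without that division 62.6% in KO and 61.4% in controls. Depth limits Adcy8, whose highest count in a library was 16. The interval of Adcy5 was wider than 1 log2 unit, with a coefficient of variation of 48.4% in KO and 5.35% in controls.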
